A study of Drosophila melanogaster with 9 samples.

Results

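The genes described here are squash (squ) and 7 other genes of the piRNA pathway, namely piwi, aubergine (aub), AGO3, vasa (vas), zucchini (zuc), krimper (krimp) and spindle-E (spn-E). They were taken by name from the annotation of the array, which gives each of the 8 genes 1 probe set of its own, out of 11983 genes measured. One further probe set that lists vas together with another gene was not used. The list was chosen by the signals of the Foxo arrays, in which squ stood higher than in the control and Mnt arrays. The differences between Foxo and the other groups are therefore given for these 8 genes as a description with no test. Of the comparisons between groups, only Mnt versus control was tested for them. Correlations with a score of testis transcripts were also tested, over all arrays for the 7 other genes and without the Foxo arrays for squ.

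piRNAs are small RNAs that guide Argonaute proteins of the PIWI class to the transcripts of transposons. In the fly the pathway is known from the gonads, where it protects the germ line, and many of its proteins gather in nuage, a perinuclear granule of germ cells. Long precursor transcripts are cut at the mitochondrial surface, the cytoplasmic PIWI proteins amplify piRNAs by cutting transposon and precursor RNA in turn, and nuclear Piwi silences transposon loci. Muscle is not a tissue in which the pathway is usually studied.

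Transcript levels in skeletal muscle of male Drosophila melanogaster were measured on 1 array per sample, of the type Affymetrix Drosophila Genome 2.0. There were 3 groups with 3 independent biological replicates each: control flies, flies with a UAS-FOXO transgene and flies with a UAS-Mnt transgene, both expressed in muscle. Foxo is a transcription factor restrained by insulin signalling, and Mnt is a repressor that opposes Myc. All flies were collected within 24 h of eclosion and kept at 25 C, and each RNA sample pooled at least 15 males. The sources used here do not name the driver line, the genotype of the control or the age at sampling.

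Values are RMA signals on the log2 scale, in which 1 unit is a doubling. Array medians over all probe sets lay between 5.70 and 5.95, and the mean of 16 muscle genes lay between 12.98 and 13.49 in the 9 arrays. The foxo probe set stood at 11.95, 9.52 and 10.22 in Foxo replicates 1, 2 and 3, against 9.42, 9.50 and 9.05 in the controls. Its mean difference of 1.24 ± 0.52 (SE, n = 3 per group) did not pass the test (limma adjusted p = 0.279), and Foxo replicate 2 stood level with the highest control. The Mnt probe set stood at 9.85, 11.69 and 11.71 in the Mnt replicates and at 8.41 to 8.57 in the controls, with a difference of 2.61 ± 0.43 (limma adjusted p = 0.450). The Foxo arrays were thus uneven in foxo transcript.

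squ encodes a nuage protein that binds Aub and was described together with Zuc as needed for transposon control in the germ line. Its signal was 4.56, 4.70 and 4.58 in control replicates 1, 2 and 3. It was 6.28, 6.48 and 6.19 in Foxo replicates 1, 2 and 3. It was 4.63, 4.64 and 5.03 in Mnt replicates 1, 2 and 3. All 3 Foxo arrays lay above all 6 others, and the control and Mnt arrays overlapped. The lowest Foxo array stood 1.49 above the highest control and 1.16 above the highest Mnt array.

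The group means of squ were 4.61 ± 0.08 in the controls, 6.32 ± 0.14 in Foxo and 4.77 ± 0.23 in Mnt (SD, n = 3 each). Foxo exceeded control by 1.70 ± 0.14 on the log2 scale (SE), which is 3.25-fold, and exceeded Mnt by 1.55 ± 0.14, or 2.93-fold. These folds are ratios of signal. The control and Mnt signals of squ lie within the range that 8 eggshell genes gave on these arrays, 4.15 to 6.06, and the files give no detection call. squ was therefore not shown to be above background in those groups, and the ratio of transcript amounts could be larger than the ratio of signals. By the same signals, each Foxo array by itself was 3.17, 3.63 and 2.99 times the control mean for replicates 1, 2 and 3. The foxo transcript in those arrays was 6.19, 1.15 and 1.87 times its own control mean, so the arrays do not fall in the same order for both genes. Mnt replicate 3 was 1.33 times the control mean of squ, and Mnt replicates 1 and 2 were 1.01 and 1.02 times it. Mnt versus control gave 0.15 ± 0.14 for squ, which did not pass the test (limma adjusted p = 0.999).

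Within an array, squ ranked between percentiles 30.6 and 34.0 of all probe sets in the controls and between 32.8 and 39.4 in Mnt. In the Foxo arrays it ranked between percentiles 53.0 and 55.1, near the middle of the array. The other 7 genes ranked between percentiles 1.01 and 36.6 in every array, with signals of 3.15 to 4.83. The 8 eggshell genes set beside squ are made in ovarian follicle cells, a tissue that males lack. A filter that leaves out the dimmest 40% of genes by mean signal, under 6.18, kept 0 of the 8 genes. Such dim signals limit how small a change could be seen, and they do not show whether a transcript was present.

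**Figure D1:**
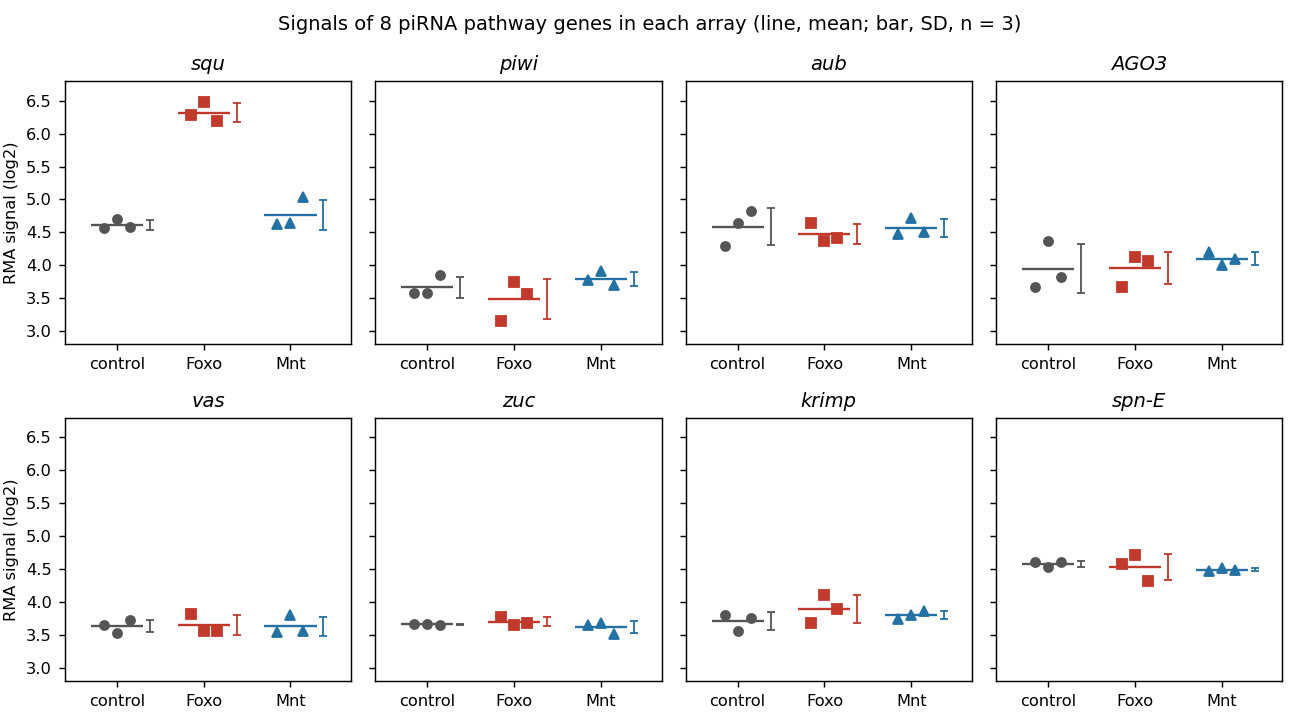
RMA signal (log2) of the 8 piRNA pathway genes in each of the 9 arrays, by group. squ lies between 6.19 and 6.48 in the Foxo arrays and between 4.56 and 5.03 in the others, and the other 7 genes lie between 3.15 and 4.83 with no such step.

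The 3 PIWI proteins come next in the order of roles. piwi, the nuclear Argonaute that directs transcriptional silencing, gave 3.58, 3.57 and 3.85 in the controls and 3.15, 3.75 and 3.57 in Foxo. In the Mnt arrays it gave 3.77, 3.91 and 3.70. The 3 groups overlapped, and Foxo replicate 1 was the lowest of the 9 arrays. Foxo minus control was -0.18 ± 0.15 on the log2 scale, Foxo minus Mnt was -0.30 ± 0.15, and Mnt minus control was 0.13 ± 0.15.

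aub, a cytoplasmic PIWI protein of nuage that carries piRNAs antisense to transposons, gave 4.29, 4.65 and 4.83 in the controls. It gave 4.64, 4.37 and 4.41 in Foxo and 4.47, 4.72 and 4.51 in Mnt. The spread within the controls, 0.27 (SD), was wider than any difference between group means, which were -0.12 ± 0.15 for Foxo minus control and -0.02 ± 0.15 for Mnt minus control. With a score of testis transcripts in the fit, Foxo minus control turned to 0.14. AGO3, the partner of Aub in the amplification cycle, gave 3.67, 4.36 and 3.82 in the controls, 3.68, 4.13 and 4.06 in Foxo, and 4.20, 4.002 and 4.10 in Mnt. Foxo minus control was 0.00 ± 0.19, and its Mnt mean lay 0.15 ± 0.19 above control.

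vas and spn-E encode RNA helicases of nuage. vas gave 3.65, 3.53 and 3.72 in the controls, 3.82, 3.55 and 3.56 in Foxo, and 3.55, 3.80 and 3.55 in Mnt. Its group means lay within 0.01 of each other, with an SE of 0.11 for each difference. vas is also a common germ cell marker, and its signal was dim in all 9 arrays. spn-E, whose protein also has a Tudor domain, gave 4.61, 4.53 and 4.61 in the controls, 4.58, 4.71 and 4.32 in Foxo, and 4.48, 4.51 and 4.49 in Mnt. Its Mnt arrays all lay below its control arrays, by a mean of 0.09 with an SE of 0.11, and Foxo overlapped both.

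zuc encodes the nuclease of the mitochondrial surface that cuts piRNA precursors. It gave 3.67, 3.67 and 3.65 in the controls, 3.77, 3.65 and 3.68 in Foxo, and 3.65, 3.68 and 3.52 in Mnt. Its range over the 9 arrays, 0.251, was the narrowest of the 7 genes other than squ. krimp encodes a Tudor-domain scaffold that brings AGO3 and Aub together. It gave 3.81, 3.56 and 3.76 in the controls, 3.68, 4.10 and 3.89 in Foxo, and 3.74, 3.80 and 3.86 in Mnt, and Foxo minus control was 0.18 ± 0.12 with overlapping groups.

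The count of genes sets these values in the table as a whole. In Foxo versus control 1 of the 8 genes, squ, had groups that did not overlap, against 23.6% of all genes. In Foxo versus Mnt it was again 1 of 8, squ, against 18.1%, and both counts hold the gene for which the list was made. In Mnt versus control it was 1 of 8, spn-E, against 8.91%. The other 7 genes differed from control by -0.18 to 0.18 in Foxo, with a median of 0.00 and with 4 higher and 3 lower, where the median of all genes was -0.06. With each array centred on its median 1 was higher and 6 were lower, and the median of all genes was -0.16. They differed by -0.09 to 0.15 in Mnt, where the median of all genes was -0.00, and Foxo differed from Mnt by -0.30 to 0.09. Foxo versus control and Mnt versus control share their control arrays.

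In the test over all genes, limma called 0.1% of genes in Foxo versus control at an adjusted p under 0.05, 0% in Mnt versus control and 0.134% in Foxo versus Mnt. These shares stand for 12, 0 and 16 genes, and 424 genes had an unadjusted p under 0.05 in Mnt versus control. Of the 8 piRNA pathway genes, 0 passed in Mnt versus control and 0 had an unadjusted p under 0.05 there.

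The wider pathway was examined from a list. Of 33 further pathway genes listed, 30 had a probe set of their own, 19 for cytoplasmic steps and 11 for nuclear steps. In Foxo versus control 10 were higher and 20 lower, with a median of -0.05, where that of all genes was -0.06. The test passed 0 of the 30, against the 0.1% of all genes. In Mnt versus control 16 were higher and 14 lower with a median of 0.00, and 0 passed, against 0% of all genes. In Foxo versus Mnt 12 were higher and 18 lower with a median of -0.03, where that of all genes was -0.04. There 0 passed, against 0.134% of all genes. An unadjusted p under 0.05 was reached by 2 of the 30 in Foxo versus control, by 0 in Mnt versus control and by 1 in Foxo versus Mnt. Over all genes the shares were 17.8%, 3.54% and 13.4%, so the counts in the list lie below those of the table as a whole in both Foxo comparisons.

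The brightest of the cytoplasmic genes were tud, which encodes the founding Tudor-domain protein, and papi, which encodes a Tudor-domain protein of the mitochondrial surface. tud stood at 11.07 to 11.25 over the 9 arrays and differed by -0.08 ± 0.06 between Foxo and control. papi stood at 10.03 to 10.63 and differed by 0.17 ± 0.15. The brightest nuclear genes were that of heterochromatin protein HP1a and Hel25E, which encodes an RNA helicase of messenger export, with differences of -0.14 ± 0.08 and 0.05 ± 0.09. HP1a and Hel25E have roles outside the germ line. None of the 4 genes passed the test in any of the 3 comparisons.

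mael and vls were picked out after their values were seen, as the 2 genes of the list with an unadjusted p under 0.05 in Foxo versus control, a share below that of all genes. mael, which encodes an HMG-box protein of nuage and nucleus, gave 4.22, 4.15 and 4.13 in the controls, 4.18, 5.14 and 4.99 in Foxo, and 4.63, 4.30 and 4.39 in Mnt. Foxo replicates 2 and 3 were its highest arrays, and Foxo replicate 1 lay among the controls. Its difference between Foxo and control was 0.61 ± 0.23 (limma adjusted p = 0.276). vls, which encodes the partner of the methyltransferase that prepares PIWI proteins for Tudor domains, gave 7.02, 7.06 and 7.18 in the controls, 6.89, 6.84 and 6.85 in Foxo, and 7.21, 7.06 and 6.98 in Mnt. All Foxo arrays of vls lay below the rest, by -0.23 ± 0.09 against control (limma adjusted p = 0.276) and by -0.22 against Mnt (limma adjusted p = 0.346).

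The siRNA and miRNA pathways, which use other Argonautes, were listed for comparison, and 7 of 10 genes had a probe set of their own. In Foxo versus control 4 were higher and 3 lower, and 0 passed the test in any comparison. Of all genes, 0.1% passed in Foxo versus control, 0% in Mnt versus control and 0.134% in Foxo versus Mnt. gw, which encodes the silencing factor GW182, differed by -0.16 ± 0.07 between Foxo and control (limma adjusted p = 0.279). loqs, which encodes the partner of Dicer-1, differed by 0.04 ± 0.13.

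**Figure D2:**
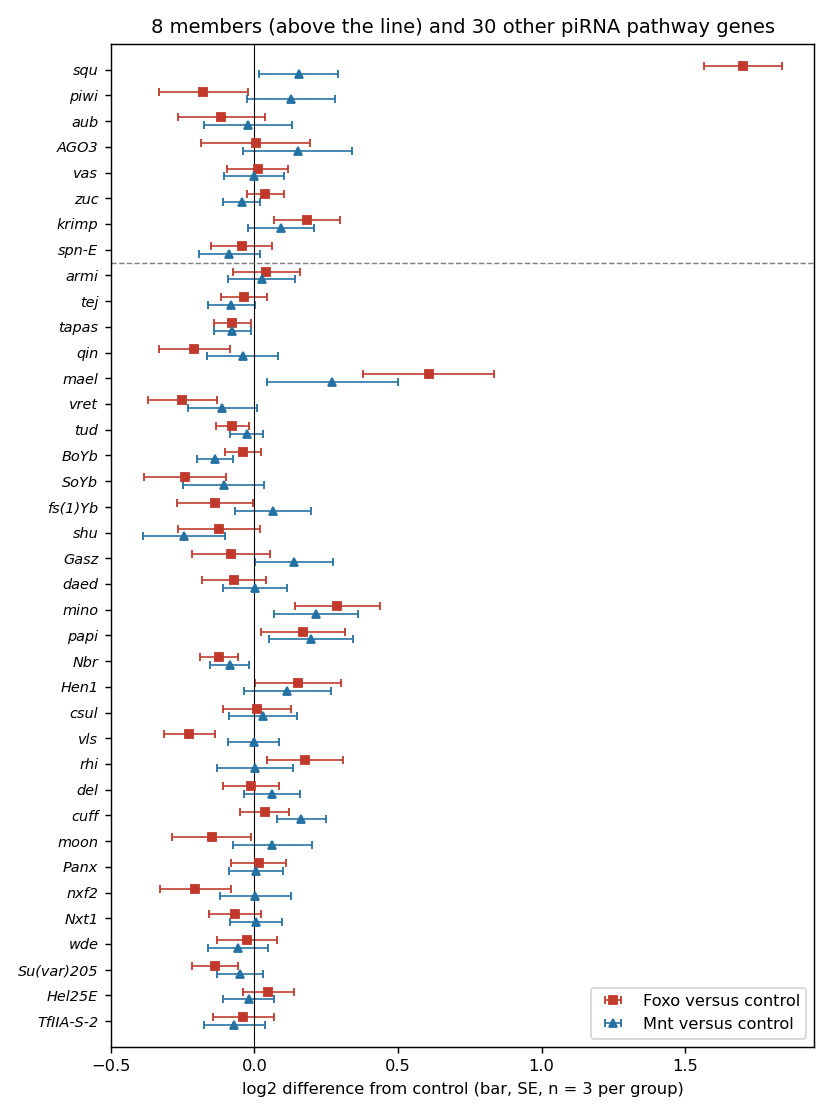
Log2 difference from control for each measured piRNA pathway gene in the Foxo and Mnt groups. squ stands at 1.70 in Foxo, mael at 0.61, and the other genes between -0.25 and 0.29.

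Germ cell transcripts were examined beside these genes, since the pathway is known from germ cells. A testis score, the mean log2 signal of 13 spermatocyte and 16 spermatid genes, was 6.58, 5.88 and 5.06 in the controls. It was 6.55, 7.37 and 7.04 in Foxo and 6.31, 5.05 and 6.98 in Mnt. Foxo replicates 2 and 3 were the highest, but Foxo replicate 1 lay below control replicate 1, and Mnt replicate 3 lay close to Foxo replicate 3. All 16 spermatid genes had a higher mean in Foxo than in control, by a median of 2.14, and all 16 in Mnt, by a median of 0.40. The test called 0 of them in each comparison, against 0.1% and 0% of all genes. Mst84Db, a male germ line gene and the one of highest mean signal in that list, gave 9.83, 8.93 and 5.98 in the controls, 9.77, 11.23 and 10.62 in Foxo, and 9.39, 6.03 and 10.42 in Mnt.

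Markers of other germ line stages gave smaller differences. Most of them were dim, within or below the 4.15 to 6.06 of the eggshell genes. The sizes of the differences therefore cannot be compared between stages. The 13 spermatocyte genes had a median difference of 0.13 between Foxo and control and the 5 early germ line genes one of -0.02. bam, a defining marker of dividing germ cells, lay between 3.26 and 3.86. The 2 brightest early genes were mei-P26, at 8.34 to 8.67, and bgcn, at 4.30 to 5.14. Foxo minus control was -0.14 ± 0.08 for mei-P26 and 0.38 ± 0.24 for bgcn. Of the 5 early genes, 2 were higher and 3 lower in Foxo than in control. The 11 ovary genes, of which 8 are the eggshell genes of follicle cells, had a median of -0.14. In these lists 0 genes passed the test, against 0.1% of all genes in Foxo versus control. The accessory gland score, over 12 genes, stood at 9.93 in Foxo replicate 3 and at 3.89 to 5.49 in the other 8 arrays. The part of testis or accessory gland RNA in the differences of squ and mael was not tested beyond the values that follow. In bulk samples fewer or more cells of a type and less or more RNA per cell cannot be told apart.

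Pairs of arrays with like testis scores can be set side by side. Control replicate 1 and Foxo replicate 1 had scores of 6.58 and 6.55, and squ stood at 4.56 and 6.28. Mnt replicate 3 and Foxo replicate 3 had scores of 6.98 and 7.04, and squ stood at 5.03 and 6.19. The pairs were not alike in accessory gland score. It was 5.49 and 4.08 in control replicate 1 and Foxo replicate 1, and 3.89 and 9.93 in Mnt replicate 3 and Foxo replicate 3. In a fit that included the testis score, Foxo exceeded control by 1.57 for squ, and in one that also included the accessory gland score, by 1.62. Among the 6 control and Mnt arrays, squ and the testis score had a Pearson r of 0.554 (exact permutation p = 0.263) and a Spearman rho of 0.143 (exact permutation p = 0.803). Without Mnt replicate 2 and control replicate 3, which had the lowest scores, r was 0.578. No correlation of the signals themselves with the score over all 9 arrays is given for squ, because its Foxo arrays stand apart from the rest. Over deviations of the 9 arrays from their group means, which take out that step, r was 0.536, with no test.

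**Figure D3:**
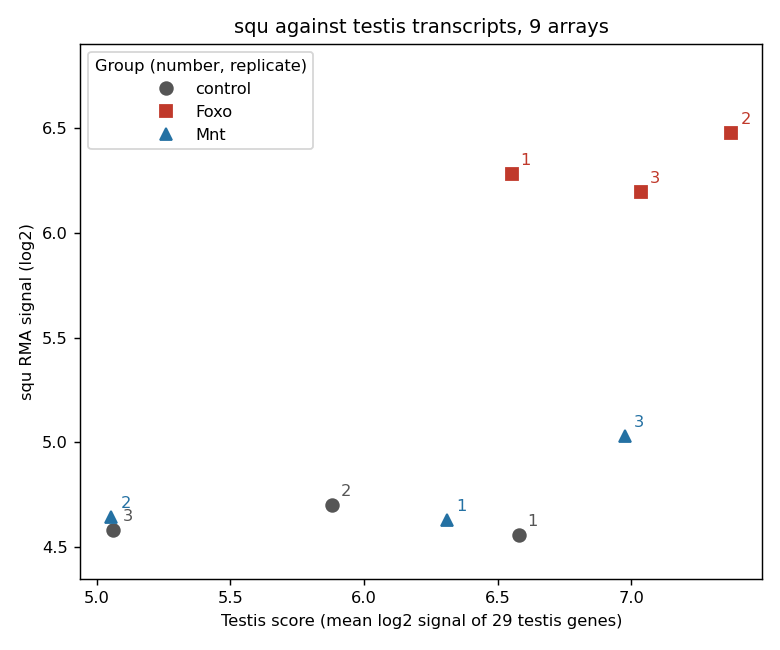
squ signal (log2) against the testis score (mean log2 signal of 29 testis genes), 1 point per array, by group. Foxo replicate 1 and control replicate 1 have scores of 6.55 and 6.58, with squ at 6.28 and 4.56.

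Over the 9 arrays aub fell as the testis score rose, with a Pearson r of -0.824 (exact permutation p = 0.00688, adjusted over the 8 genes 0.0550) and a Spearman rho of -0.817 (exact permutation p = 0.0108). Without Mnt replicate 2 and control replicate 3, r was -0.562. Over deviations from the group means it was -0.855. An r at least as far from 0 as that of aub was found in 12% of all genes, and one at or below it in 4.40%. krimp had an r of 0.549 (exact permutation p = 0.126) and a rho of 0.717 (exact permutation p = 0.0369), and r was 0.946 without the same 2 arrays. vas had an r of -0.540 (exact permutation p = 0.130) and piwi of -0.405 (exact permutation p = 0.286). Without the same 2 arrays these r became -0.065 for vas and 0.221 for piwi, so both r of the signals themselves rested on them. AGO3, zuc and spn-E had r of 0.092, -0.192 and -0.044, with exact permutation p of 0.807, 0.629 and 0.912. Over deviations from the group means, r was -0.728 for vas, -0.669 for zuc and -0.179 for piwi. By the same measure it was 0.354 for krimp, 0.194 for AGO3 and 0.0128 for spn-E. The r over deviations were not tested. None of the 7 genes other than squ passed after adjustment. The permutations took no account of the groups, and the 9 arrays include the Foxo arrays by which the list was chosen. The adjustment over the 8 genes included squ.

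The genes next to squ were compared with it. In the Release 6 plus ISO1 MT annotation squ overlaps grp, the fly Chk1 kinase of the DNA damage checkpoint. The probe sequences were not used here, so a probe set of one gene that reads the other cannot be told apart. grp gave 8.06, 8.31 and 8.20 in the controls, 7.96, 8.06 and 8.01 in Foxo, and 8.24, 8.04 and 8.14 in Mnt. Its difference between Foxo and control was -0.18 ± 0.08 (limma adjusted p = 0.297), opposite in sign to that of squ.

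The nearest measured genes on the 2 sides were her, a gene of sex determination, with 0.03 ± 0.13 (limma adjusted p = 0.900) and CG31807 with 0.15 ± 0.10 (limma adjusted p = 0.424). Beyond them lay Trpgamma, which encodes a calcium channel of the TRP class, with 0.07 ± 0.13, and VhaSFD, which encodes a subunit of the vacuolar proton pump, with 0.17 ± 0.04 (limma adjusted p = 0.270). Of the 13 measured neighbours, 6 on each side and grp, 9 were higher and 4 lower in Foxo. Their median was 0.07, where that of all genes was -0.06, and 0 passed the test, against 0.1% of all genes. The number of neighbours was chosen after their values were seen.

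Of these neighbours 10 lay between -0.28 and 0.25 and 3 were higher by over 1 log2 unit, and these 3 are named for that reason. CG5968 differed by 2.15 ± 0.77 (limma adjusted p = 0.276), CG31816 by 1.69 ± 0.77 (limma adjusted p = 0.288) and CG4631 by 1.42 ± 0.62 (limma adjusted p = 0.279). CG4631 gave 4.72, 3.71 and 4.04 in the controls, 4.58, 6.54 and 5.59 in Foxo, and 4.16, 3.67 and 5.69 in Mnt. Its Foxo and control groups overlapped, its high arrays were those of the highest testis score, and the part of testis RNA in its difference was not tested. CG5968 lay at 6.82 to 8.56 in Foxo and at 4.88 to 6.75 in the controls, with no overlap. In Mnt it lay at 4.82 to 7.52, and the part of testis RNA was not tested for it either. Over the 13 neighbours, 3 had Foxo and control groups that did not overlap, against 23.6% of all genes.

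**Figure D4:**
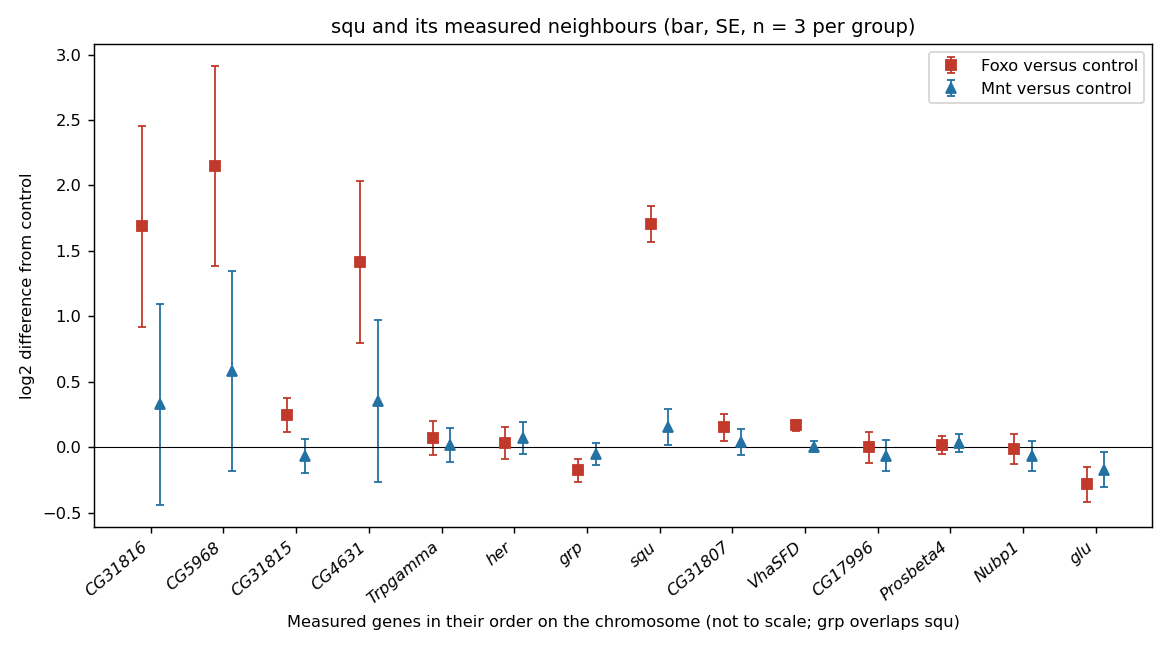
Log2 difference from control in Foxo and Mnt for squ and its measured neighbours in chromosomal order, with the SE of limma's fit as bars (3 arrays per group). squ stands at 1.70 with an SE of 0.14, grp at -0.18, and CG31816, CG5968 and CG4631 have SEs of 0.62 to 0.77.

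The 10 genes most like squ were ranked by Pearson r over the 9 arrays among all genes measured, as a description with no test. They were CG6583 (r = 0.970), Cyp4p2 (0.957), VhaSFD (0.957), Uch (0.949), Prx6c (0.945), OXA1L (0.941), Cyp6a14 (0.936), Ubi-p63E (0.934), CG4928 (0.933) and cathD (0.930). All of these have their 3 Foxo arrays above the other 6. Their differences between Foxo and control were 2.53 for Prx6c, a peroxiredoxin, and 1.56 and 1.50 for Cyp4p2 and Cyp6a14, which are cytochrome P450 enzymes. They were 0.44 for CG6583, 0.39 for Uch, a ubiquitin hydrolase, and 0.37 for OXA1L, a mitochondrial insertase. They were 0.35 for Ubi-p63E, a polyubiquitin gene, 0.39 for CG4928, and 0.17 for both VhaSFD and cathD, a lysosomal protease. A high r here thus goes with differences from 0.17 to 2.53.

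**Figure D5:**
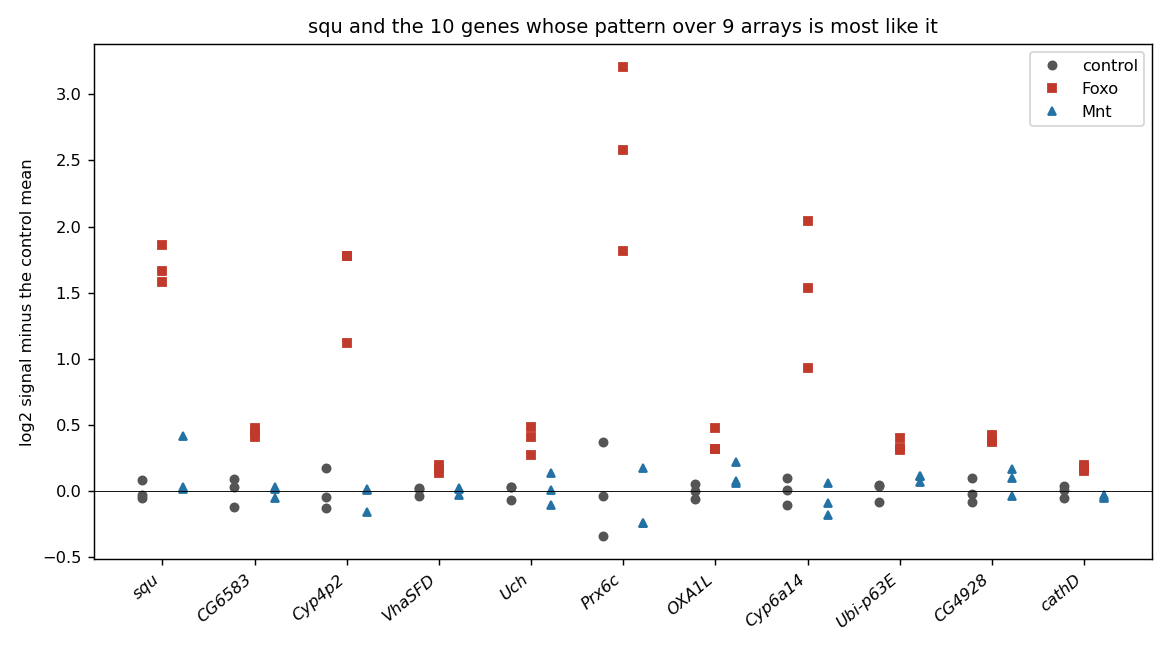
Log2 signal minus the control mean in each array for squ and the 10 genes with the highest r to it, by group. The 3 Foxo arrays lie above the other 6 in each gene, by mean differences from 0.17 in VhaSFD and cathD to 2.53 in Prx6c.

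The other 7 piRNA pathway genes were not among those genes. Their r with squ over the 9 arrays was 0.511 for krimp, 0.328 for zuc, 0.0251 for spn-E, -0.0228 for vas, -0.0748 for AGO3, -0.312 for aub and -0.509 for piwi. The points of these correlations share their arrays and the step of the Foxo group in squ, so they describe likeness over 9 arrays and no more.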

How the data were processed

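The authors deposited log2 signals per probe set, made with RMA per the submitters' processing notes. The sources used here do not give its version. RMA makes array distributions alike, which hides a shift common to most transcripts. Release 6 plus ISO1 MT names were used. Of 18952 probe sets, 13647 list 1 gene and represent 11983 genes, each by its brightest probe set on average. limma 3.58.1 in R 4.3.3 (lmFit, eBayes with an intensity trend) was fitted to all 9 arrays, with 6 residual degrees of freedom and Benjamini-Hochberg adjustment over the 11983 genes. The test was tested on simulated data. The members, lists and tests were chosen with earlier results of these data known. Named genes are the 8 members, foxo, Mnt, the 10 genes most like squ, the 2 genes on each side of squ, and for each list its called genes, at most 2 in each direction, or its 2 brightest genes where 0 were called. Others were named after their values were seen. A window in distance was replaced by the 6 measured neighbours on each side, because the build of the array is not given. Arrays limit precision by their number, 3 per group. Alternatives covered the fit, scaling, filters, probe sets, covariates and each array left out.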

Additional observations from a re-analysis of the deposited data

How the results depend on the processing

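squ exceeded control in Foxo by 1.54 to 1.76 on the log2 scale in 18 alternatives (1.62 to 1.76 with 1 array left out), and the dim filter left none of the 8 genes. Not all of these alternatives could move the difference. The replicate block, the intensity trend and a fit to only the arrays compared left it at 1.70 by their form. So did the handling of probe sets, as squ has 1, and leaving out an Mnt array. Of 378 alternative values for the other 7 genes, 370 stayed within the spread between replicates and 8 moved beyond it, all within -0.43 to 0.36. The same settings, and leaving out an array of the group not compared, could not move these values either. The 370 therefore include values that were the same by form, and their number does not measure stability. The count of other piRNA pathway genes called stayed at 0 in 19 alternatives for each comparison, and their median in Foxo versus control, -0.05, became -0.16 with arrays centred on their medians, where the median of all genes went from -0.06 to -0.16 and zuc went from 0.04 to -0.06. In Foxo versus control aub turned from -0.12 to 0.14 with the testis score and 0.16 with both scores, vas went from 0.01 to 0.16 and 0.17, and zuc to 0.10 with each. In Foxo versus Mnt aub turned from -0.09 to 0.13 with both scores. With the replicate block, whose numbers did not pair the arrays, 0 genes were called in Foxo versus control, 1 in Foxo versus Mnt and 0 in Mnt versus control, against 12, 16 and 0. In Foxo versus control and Foxo versus Mnt the counts were 0 and 0 with only the arrays compared, 4 and 5 without the trend, 28 and 31 with centring, 7 and 6 with the testis score, and 3 and 5 with both scores as covariates. Centring turned the 4 higher and 12 lower genes of Foxo versus Mnt into 4 and 27. With 1 array left out they ran from 0 to 13 and from 0 to 14, and from 0 to 1 in Mnt versus control. They were 0 and 0 without control replicate 2, 0 and 6 without control replicate 3, and 1 and 1 without Foxo replicate 1. Those counts moved for the table as a whole, and the cause was not tested. The r of aub with the testis score passed the adjusted threshold with 3 alternatives, at -0.830 over spermatid genes alone, -0.874 with centring and -0.905 without control replicate 1.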
